A study of Mus musculus with 18 samples.

Results

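The genes of the renin-angiotensin system were examined in kidney cortex RNA of mouse strains that had been challenged with antibodies against the glomerular basement membrane (anti-GBM). All array probes whose symbol is Ren1, Ren2, Agt, Ace, Agtr1a, Mme, Enpep, Atp6ap2 or Agtrap were taken. Of these 9 genes, 8 were found, with 14 of the 46632 probes in the table of B6 and NZW. In the table of BALB/c, DBA1 and 129/svj, 8 of 46147 probes matched by search key and covered 6 of the genes, and 7 probes could be paired uniquely between the tables. Ren2 had no probe under its own symbol, and Agtr1a and Atp6ap2 were read in B6 and NZW only.

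The data come from 15 mice aged 2 months, 3 per strain, measured on 18 Illumina mouse BeadChips, because mouse 1 of BALB/c, DBA1 and 129/svj has a second array. B6 and BALB/c are the strains that the study names as resistant to anti-GBM nephritis, and NZW, DBA1 and 129/svj those it names as sensitive. Every mouse had received the challenge, so strain differences that precede it and differences in the response to it cannot be told apart here, and the labels give neither the sex of the mice nor the day of sampling. Each mouse is taken as a separate animal, as its label numbers it. The 2 tables were normalized separately, and levels are compared within a table except where a joint normalization is named. Where groups are said not to overlap, the share of all tested probes without overlap was not counted.

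Renin, an enzyme released by the juxtaglomerular cells of the afferent arteriole, cleaves angiotensinogen (Agt) to angiotensin I, which angiotensin-converting enzyme (Ace) turns into angiotensin II. Angiotensin II acts through the type 1 receptor (Agtr1a in mice) on vessels and tubules, Agtrap binds that receptor and promotes its internalization, and Atp6ap2 encodes the (pro)renin receptor. Neprilysin (Mme) and aminopeptidase A (Enpep) break down angiotensin peptides at the brush border of the proximal tubule. Some inbred strains, 129 among them, carry Ren2, a duplicate renin gene very similar to Ren1, whereas B6 and BALB/c have a single renin gene.

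Agt and Ren1 gave the strain differences described first, and the 250 bases before their RefSeq transcription start (GRCm38.p6) are therefore shown from 5′ to 3′ on the strand of the gene. Ren1 lies on the plus strand at chr1:133350424-133350673, and Agt on the minus strand at chr8:124569707-124569956. Capitals mark TATAAA, the motif searched on both strands.
Ren1: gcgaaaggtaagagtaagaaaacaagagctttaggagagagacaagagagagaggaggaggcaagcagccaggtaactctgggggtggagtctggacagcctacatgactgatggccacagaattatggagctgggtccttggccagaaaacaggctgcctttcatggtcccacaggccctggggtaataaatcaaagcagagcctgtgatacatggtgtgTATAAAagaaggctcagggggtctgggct
Agt: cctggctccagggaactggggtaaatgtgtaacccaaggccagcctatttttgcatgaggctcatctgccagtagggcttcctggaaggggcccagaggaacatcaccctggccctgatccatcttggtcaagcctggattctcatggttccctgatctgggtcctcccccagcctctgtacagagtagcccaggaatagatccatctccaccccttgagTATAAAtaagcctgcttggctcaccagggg
In Ren1 the motif spans the bases 29 to 24 before the start, and in Agt the bases 30 to 25. Of all 32851 promoters in the RefSeq table, 12.4% hold TATAAA on either strand in the same 250 bases. The match is a description of the reference sequence, and the strains' own promoters were not read.

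The signal of Agt, the precursor of all angiotensins, divided the strains most widely among the members. Agt was read by a single probe in each table, ILMN_1227398 or 7000575, so no second probe checks its signal. Whether the probe binds alike in all strains was not tested, so a low signal need not mean little RNA. Its normalized log2 signal was 8.53, 8.70 and 8.49 in the B6 mice and 4.74, 4.97 and 4.88 in the NZW mice. The probe was detected (detection p of at most 0.05 against the negative control beads) in each of the 3 B6 mice and in none of the NZW mice, so NZW has only an upper bound. Against the lowest signal counted as detected on those arrays, Agt was at least 9.53-fold higher in B6 under the background correction used. The measured log2 difference was 3.71 ± 0.11 (SE, n = 3 per strain; limma, adjusted p = 1.44e-07). Without background correction it shrank to 2.46 and still passed, so the fold bound holds only for the correction used. Agt met the filter of 3 detected mice through B6 alone. With no filter, over all 46632 probes of the table, its adjusted p was 7.76e-07.

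In the other table Agt was low in BALB/c and high in both sensitive strains. The BALB/c mice had log2 signals of 5.44, 4.84 and 5.67, of which only that of mouse 3 was detected. The DBA1 mice had 7.36, 8.07 and 7.71, and the 129/svj mice had 7.29, 7.10 and 7.44. All mice of the sensitive strains lay above all BALB/c mice, while DBA1 and 129/svj overlapped. Agt was lower in BALB/c than in DBA1 by -2.40 ± 0.24 on the log2 scale (SE, n = 3 per strain; limma, adjusted p = 0.000222) and lower than in 129/svj by -1.96 ± 0.24 (adjusted p = 0.000803). Without background correction these differences were -1.20 and -0.92 and still passed. Agt met the filter through DBA1 and 129/svj, and with no filter, over 46147 probes, the adjusted p-values were 0.000589 and 0.00203. Because 2 of the 3 BALB/c values lie at the background, the sizes depend on the background correction and no fold is given. DBA1 and 129/svj differed by 0.43, with a 95% interval from -0.11 to 0.97 (limma, adjusted p = 0.525). A low Agt signal was thus found in 1 resistant strain, BALB/c, and 1 sensitive strain, NZW.

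Ren1 was read by 2 probes in each table. The search key of the first, ILMN_2777226 in the table of B6 and NZW and 6380735 in the other, holds the number 19702, which in RefSeq is the gene ID of Ren2, while that of Ren1 is 19701. Among 1924 probes with such a key, the number was the gene ID of the annotated symbol in 71.7%. This probe is therefore uncertain between the renin genes, the probe sequences were not used here, and whether either probe reads Ren2 RNA was not tested. The second probe, ILMN_2620114 or 3440369, has a key of another kind.

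With the first probe, Ren1 was at 10.40, 10.40 and 10.38 in B6 and at 9.57, 9.86 and 9.63 in NZW. The strains did not overlap, and B6 was higher by 0.71 ± 0.11, or 1.64-fold (limma, adjusted p = 0.00265). With the second probe the B6 mice were at 12.65, 12.71 and 12.58 and the NZW mice at 12.32, 12.52 and 12.23. B6 mice again lay above NZW mice, but the difference of 0.29 ± 0.11 missed the threshold (adjusted p = 0.117), and with arrays scaled to their 75th percentile it shrank to 0.08 (adjusted p = 0.761).

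BALB/c had the lowest Ren1 signal of its table with both probes. By the first probe the BALB/c mice were at 9.22, 9.20 and 9.63, the DBA1 mice at 10.32, 10.56 and 10.30, and the 129/svj mice at 10.06, 9.83 and 9.99. By the second they were at 11.84, 11.49 and 12.10 in BALB/c, 12.89, 12.93 and 13.14 in DBA1, and 12.60, 12.46 and 12.86 in 129/svj. The 3 strains did not overlap with either probe, in the order BALB/c, 129/svj, DBA1.

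Against DBA1, BALB/c was lower by -1.04 ± 0.16 with the first probe (limma, adjusted p = 0.00363) and by -1.17 ± 0.18 with the second (adjusted p = 0.00396), a 2.06-fold and a 2.26-fold difference. Against 129/svj the differences were -0.61 ± 0.16 (adjusted p = 0.0655) and -0.83 ± 0.18 (adjusted p = 0.0286), so that the second probe passed and the first did not. The first passed without background correction (adjusted p = 0.03), with an offset of 50 (adjusted p = 0.0418), with joint normalization of both tables (adjusted p = 0.0131) and without BALB/c mouse 3 (adjusted p = 0.0365). The call of the second was lost when 129/svj mouse 1 or 3 or BALB/c mouse 1 or 2 was left out, with adjusted p-values up to 0.122, and when only the mice of these strains were fitted (adjusted p = 0.0544). DBA1 and 129/svj, neighbours in the order, differed by 0.44 (95% interval 0.08 to 0.79, limma adjusted p = 0.232) and by 0.35 (95% interval -0.06 to 0.76, adjusted p = 0.473).

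**Figure D1:**
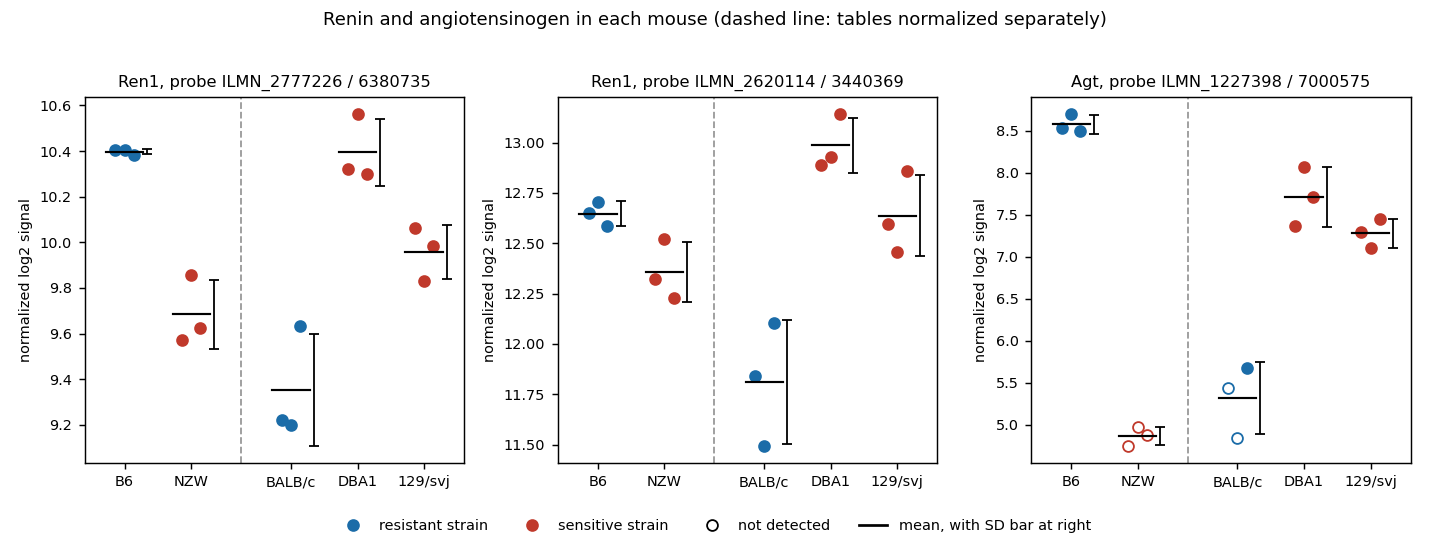
Normalized log2 signal (vertical axes) of both Ren1 probes and the Agt probe in each mouse by strain (horizontal axes), with the strain mean as a line and the SD as a bar at its right; open circles are signals not detected, and the dashed line parts tables that were normalized separately. Agt lies at 8.49 to 8.70 in B6 and at 4.74 to 4.97 in NZW, and Ren1 is lowest in BALB/c within its table for both probes.

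The smooth muscle and mural cell markers, a class of cells to which renin cells belong, moved in the same directions in part. In B6 against NZW 5 of 8 markers were tested and 2 were called, beside 18.9% of all probes. Both were higher in B6, Acta2 by 0.95 and Mylk by 0.47. The mean log2 signal of the tested markers was 9.34 to 9.57 in B6 and 9.07 to 9.25 in NZW. In BALB/c against DBA1 2 of 4 measured markers were tested, and only Mylk was called, lower in BALB/c by -0.57, beside 5.75% of all probes. The mean was 9.97 to 10.26 in BALB/c, 10.61 to 10.89 in DBA1 and 9.93 to 10.78 in 129/svj. Of the juxtaglomerular and macula densa genes tested, 1 of 6 was called in B6 against NZW, beside 18.9% of all probes. It was the gap junction gene Gja5, higher in B6 by 0.61 (limma, adjusted p = 0.0209). In the table of BALB/c, DBA1 and 129/svj 3 of 9 measured genes of this list were tested, and Gja5 was not among them. None of the 3 was called in any comparison, and none had an unadjusted limma p below 0.05. Fewer cells of a type and less RNA per cell cannot be told apart in these bulk samples, and the part of these markers in the Ren1 values was not tested.

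Ace, the converting enzyme of endothelium and proximal tubule brush border, ran in opposite directions in the tables. The paired probe, ILMN_2424060 or 103440537, was at 8.91, 9.47 and 9.67 in B6 and at 9.80, 10.11 and 9.82 in NZW. A further probe, ILMN_2693774, was at 7.47, 7.66 and 7.90 in B6 and at 8.31, 8.38 and 7.99 in NZW. With both probes all B6 mice lay below all NZW mice. The difference was -0.56 ± 0.20 for the paired probe (limma, adjusted p = 0.0819) and -0.55 ± 0.15 for ILMN_2693774 (adjusted p = 0.0381). The latter call was lost when B6 mouse 1 or 2 or NZW mouse 1 or 2 was left out, with adjusted p-values of 0.0955 to 0.124, and with no filter on detection (adjusted p = 0.0734). The value of the paired probe ran from -0.72 without B6 mouse 3 (adjusted p = 0.0474) to -0.34 without B6 mouse 1 (adjusted p = 0.195), and it passed with 75th percentile scaling (-0.71, adjusted p = 0.0244) and without background correction (-0.52, adjusted p = 0.0432). A further Ace probe, ILMN_2613683, ran from 4.88 to 5.38, was detected in 2 NZW mice and no B6 mouse, and was not tested.

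In the other table the paired Ace probe was at 9.52, 9.68 and 9.84 in BALB/c, 9.18, 8.98 and 8.34 in DBA1, and 8.83, 9.43 and 9.14 in 129/svj. BALB/c mice lay above the mice of both sensitive strains, which overlapped each other. The differences, 0.85 ± 0.23 against DBA1 (limma, adjusted p = 0.067) and 0.55 ± 0.23 against 129/svj (adjusted p = 0.3), did not pass. The former passed without background correction (adjusted p = 0.0433), with an offset of 50 (adjusted p = 0.0483) and with joint normalization (adjusted p = 0.0269). Probe 1780161 was at 6.45, 6.30 and 6.21 in BALB/c, at 5.62, 5.65 and 5.80 in DBA1 with 1 mouse detected, and at 6.35, 5.88 and 5.89 in 129/svj. BALB/c and DBA1 did not overlap, but the difference of 0.63 ± 0.16 did not pass (adjusted p = 0.0514) and shrank to 0.25 without background correction. It passed in a fit of these strains alone (adjusted p = 0.0363) and without 129/svj mouse 1 (adjusted p = 0.0348) or 3 (adjusted p = 0.0461). Both arrays of DBA1 mouse 1 differed by 0.92 for this probe, more than the strains did. Against 129/svj the difference was 0.28 (95% interval -0.08 to 0.64, adjusted p = 0.484). The 95% intervals for DBA1 against 129/svj ran from -0.82 to 0.22 for the paired probe and from -0.71 to 0.01 for 1780161.

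Proximal tubule markers were present in both tables, with 10 of 10 tested in the table of B6 and NZW and 7 of 7 measured in the other. In B6 3 of 10 were lower than in NZW, beside 18.9% of all probes called in that comparison. Among these markers were the lactate transporter Slc5a12, by -1.34, and the endocytic receptor gene Cubn, by -0.60. The mean over the markers was 11.48 to 11.68 in B6 and 11.89 to 12.01 in NZW. The markers in BALB/c averaged 10.49 to 10.78, in DBA1 10.17 to 10.81 and in 129/svj 10.02 to 10.61. In BALB/c against DBA1 none of 7 was called by limma, with 2 at an unadjusted p below 0.05. Against 129/svj, 2 of 7 were called for BALB/c, beside 4.83% of all probes, and 1 of 7 for DBA1, beside 4.49%. The glucose transporter gene Slc5a2 was higher than in 129/svj in BALB/c by 1.53 and in DBA1 by 1.23. The anion transporter gene Slc22a6 was lower in BALB/c than in 129/svj by -1.39. The part of these markers in the Ace values was not tested.

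Agtr1a, the receptor gene, was at 9.90, 9.59 and 9.56 in B6 and at 9.86, 9.63 and 9.79 in NZW. The strains overlapped, and the difference of -0.08 had a 95% interval from -0.37 to 0.22 (limma, adjusted p = 0.74).

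Agtrap, which encodes the receptor-associated protein, had higher signals in all mice of the resistant strain than in the sensitive mice of its own table. Of these differences only that of BALB/c from DBA1 passed the threshold. Agtrap was at 10.19, 10.03 and 10.16 in B6 and at 9.88, 9.77 and 9.40 in NZW. These strains did not overlap, but the difference of 0.44 ± 0.14 missed the threshold (limma, adjusted p = 0.0628), which it passed without background correction (adjusted p = 0.0286), with an offset of 50 (adjusted p = 0.0362) and without NZW mouse 1 (adjusted p = 0.0463), and it was 0.28 with 75th percentile scaling (adjusted p = 0.248). In the other table Agtrap was at 9.58, 9.51 and 9.70 in BALB/c, at 8.31, 8.41 and 8.39 in DBA1, and at 9.48, 9.34 and 8.78 in 129/svj.

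DBA1 was the lowest, and no strain there overlapped with another. BALB/c exceeded DBA1 by 1.23 ± 0.18, a 2.34-fold difference (limma, adjusted p = 0.00267), and exceeded 129/svj by 0.40 ± 0.18 (95% interval -0.005 to 0.80, adjusted p = 0.338), which did not pass. DBA1 was below 129/svj by -0.83 ± 0.18 (adjusted p = 0.0271). That call was lost with the mouse number as a block (adjusted p = 0.0539) and when BALB/c mouse 1, 129/svj mouse 1 or 2, or any DBA1 mouse was left out, with adjusted p-values from 0.0507 to 0.115.

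Atp6ap2, the (pro)renin receptor gene on the X chromosome, was read by 3 probes in B6 and NZW. Probe ILMN_2628658 was at 8.34, 8.20 and 7.94 in B6 and at 8.17, 7.78 and 8.77 in NZW. Probe ILMN_2725286 was at 8.65, 8.69 and 8.39 in B6 and at 8.55, 8.28 and 8.80 in NZW. The strains overlapped with both probes. The differences were -0.08 (95% interval -0.61 to 0.45, limma adjusted p = 0.843) and 0.03 (95% interval -0.33 to 0.38, adjusted p = 0.92). Probe ILMN_2606516 was detected in no mouse, at 4.97 to 5.23, and was not tested.

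The peptidases Mme and Enpep lay at the background in every strain. The Mme probes ran from 4.51 to 5.00 in B6 and NZW and from 4.84 to 5.78 in the other table, where 1 DBA1 mouse was detected. The Enpep probes ran from 4.61 to 4.91 and from 4.82 to 5.41 and were detected in no mouse. Neither gene was tested, so no strain difference of either can be read from these arrays.

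**Figure D2:**
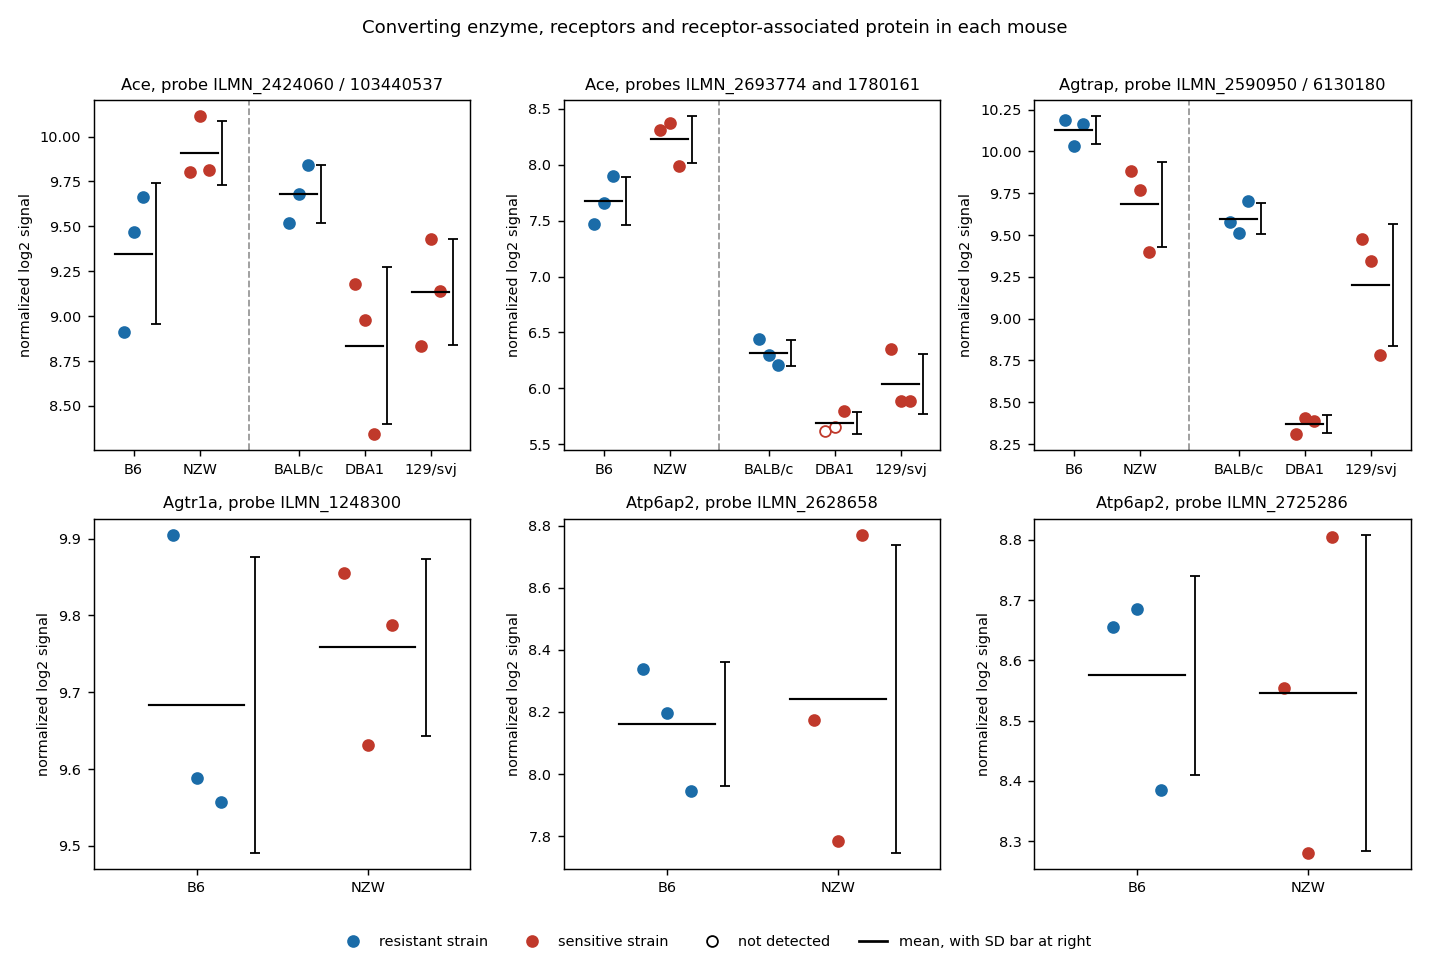
Normalized log2 signal (vertical axes) of Ace, Agtrap, Agtr1a and Atp6ap2 probes in each mouse by strain (horizontal axes), drawn as in the plot of Ren1 and Agt, with the strain mean as a line and the SD as a bar; ILMN_2693774 and 1780161 are not paired as the same probe. The DBA1 mice lie at 8.31 to 8.41 for Agtrap, below every other mouse of their table, and both strains overlap for Agtr1a and Atp6ap2.

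Over all members, 3 of the 9 tested probes differed between B6 and NZW (Agt, Ren1 and Ace), where 18.9% of all 16756 tested probes did. Between BALB/c and DBA1, 4 of 6 member probes differed (both Ren1 probes, Agt and Agtrap), beside 5.75% of all 15818. Between BALB/c and 129/svj 2 of 6 differed (Agt and a Ren1 probe), beside 4.83%, and between DBA1 and 129/svj 1 of 6 (Agtrap), beside 4.49%. These counts are of few probes, several of which read the same gene, and a probe had to be detected in at least 3 mice to be tested, a filter that Agt met only through the strains where it is high. The median log2 difference of the tested member probes was 0.03 in B6 against NZW, beside -0.04 over all tested probes. It was -0.21 beside 0.01 in BALB/c against DBA1, -0.16 beside 0.01 in BALB/c against 129/svj, and 0.02 beside 0.00 in DBA1 against 129/svj. The comparisons among BALB/c, DBA1 and 129/svj share mice.

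**Figure D3:**
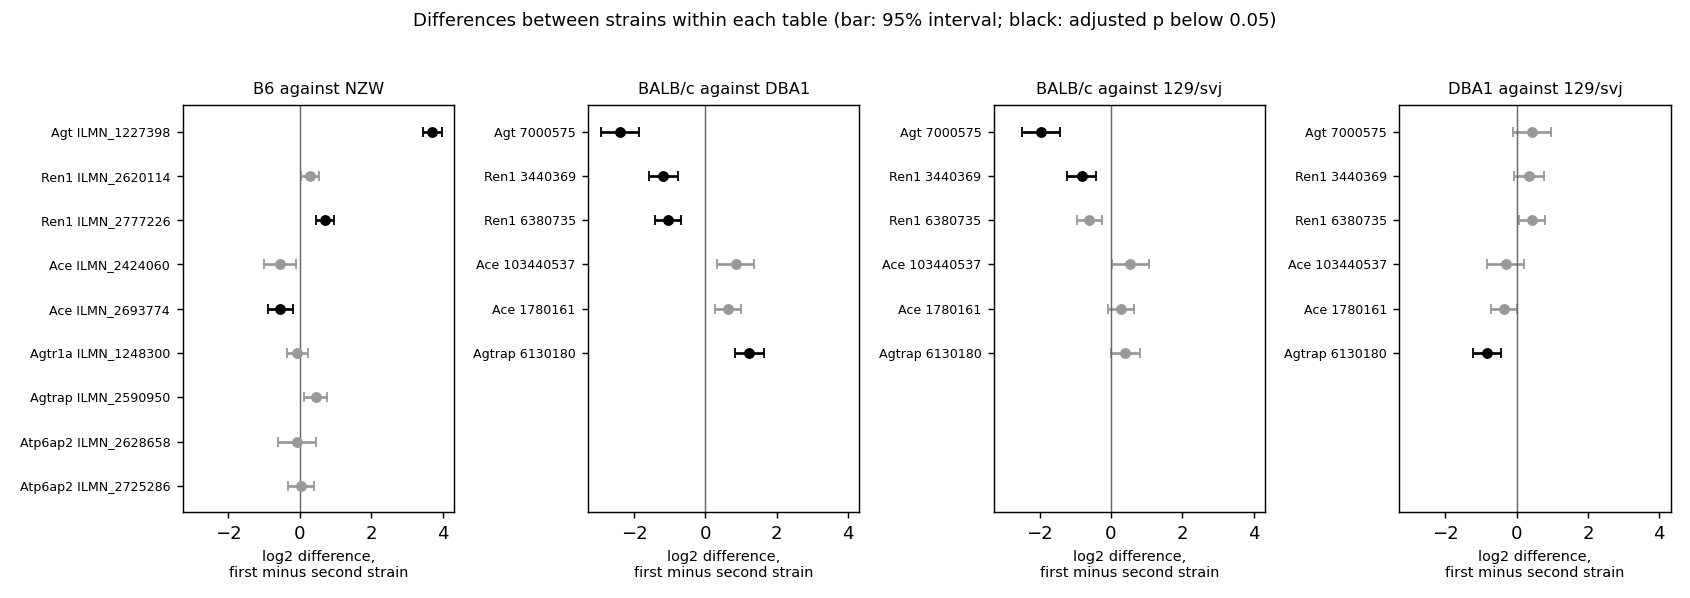
Log2 difference of each tested member probe (horizontal axes, first minus second strain) in the 4 comparisons within a table, with its 95% interval as a bar; black points have a limma adjusted p below 0.05. Agt lies above 0 in B6 against NZW and below 0 in BALB/c against DBA1, with sizes set in part by background values since it was detected in no NZW mouse and 1 BALB/c mouse, and the Agtr1a and Atp6ap2 intervals span 0.

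The comparison the study names, of resistant with sensitive strains, was made on the paired probes, normalized together over all 15 mice. The difference of the resistant from the sensitive strains was taken within each table and then averaged, and 3 of the 5 tested member probes passed, beside 12.0% of all 6896 tested. The median of the members was 0.10, beside -0.01 over all tested probes. The SE and p-values of this fit rest on the spread among mice within strains. Resistance belongs to the strain, and the spread among strains does not enter them. Agtrap was higher in the resistant strains by 0.64 ± 0.11, a 1.56-fold difference (limma, adjusted p = 0.00123). On this scale Agtrap was 9.70 to 9.84 in the B6 mice, 9.70 to 9.90 in BALB/c, 9.10 to 9.54 in NZW, 8.47 to 8.56 in DBA1 and 8.93 to 9.65 in 129/svj. The 6 resistant and 9 sensitive mice thus did not overlap on the joint scale. The gap was narrow, with B6 mouse 2 at 9.695 and 129/svj mouse 1 at 9.647. Those mice lie in different tables, and an offset between the tables for this probe cannot be told apart from strain. How many of all tested probes separate in this way was not counted. The call held on leaving out each mouse in turn, with differences of 0.58 to 0.69. A limma fit that took strain as a random block lets the spread among strains enter. With a within-strain correlation of 0.17 shared by all probes, the adjusted p there was 0.12, and Agtrap did not pass. The spread of Agtrap itself among strains was not estimated in that fit.

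The second Ren1 probe passed, by -0.36 ± 0.11 (limma, adjusted p = 0.0452), and so did Agt (0.49 ± 0.14, adjusted p = 0.0377), but resistant and sensitive mice overlapped for both, and the Agt value is set in part by background values in NZW and BALB/c. These averages join opposite differences, as the next values show, and in the fit with random strain blocks the adjusted p-values were 0.984 for Agt and 0.409 for Ren1. On leaving out each of the 15 mice in turn the Agt call was lost in 11 cases and the Ren1 call in 13. The first Ren1 probe (-0.09, 95% interval -0.29 to 0.11, adjusted p = 0.651) and Ace (0.10, 95% interval -0.24 to 0.43, adjusted p = 0.777) did not pass.

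The within-table differences were unlike for 4 of the 5 tested member probes, beside 10.3% of all 6896 tested. Per probe, the difference in B6 against NZW was subtracted from that in BALB/c against the mean of DBA1 and 129/svj. The median of these values was -1.30 over the members, beside 0.04 over all tested probes. For Agt the difference in B6 against NZW was 3.30 and that in BALB/c against the mean of DBA1 and 129/svj was -2.33, unlike by -5.63 ± 0.29 (limma, adjusted p = 4.22e-09). The lower strain of both pairs lay at or near the background, so the signs can be read from which mice were detected, while the sizes depend on the background correction. For the Ren1 probes the within-table differences were 0.66 and -0.84 with the first probe, unlike by -1.50 ± 0.19 (adjusted p = 7.59e-05), and 0.30 and -1.01 with the second, unlike by -1.30 ± 0.22 (adjusted p = 0.000822).

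Ace ran the other way, with -0.54 in B6 against NZW and 0.73 in BALB/c, unlike by 1.26 ± 0.31 (limma, adjusted p = 0.016). That call was lost without B6 mouse 1 (adjusted p = 0.0541) or NZW mouse 2 (adjusted p = 0.0506). Agtrap was the exception, with 0.42 and 0.86, both higher in the resistant strain, though the former did not pass (limma, adjusted p = 0.155). Its difference between the tables was 0.44 (95% interval -0.04 to 0.92, adjusted p = 0.273). The tables also differ in their arrays, and strain pair and table cannot be told apart in these comparisons.

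**Figure D4:**
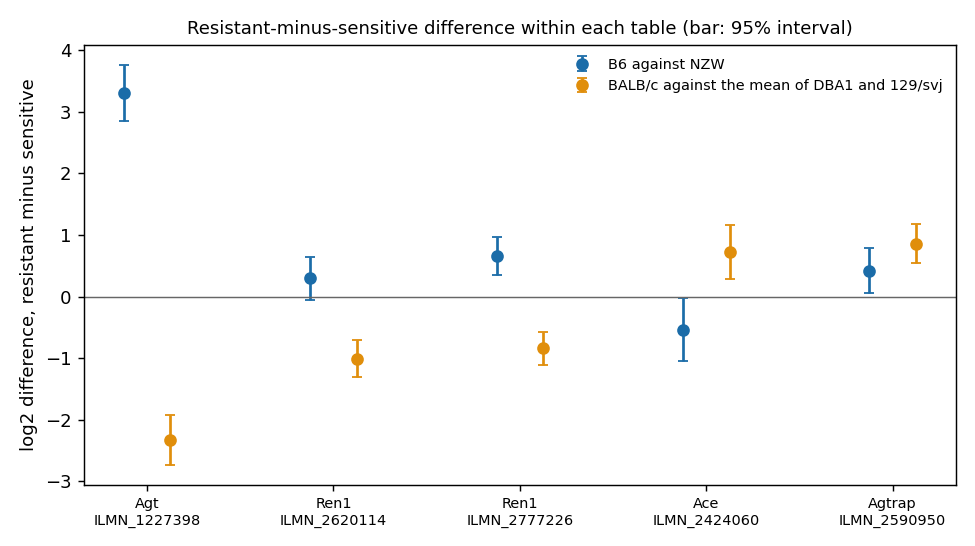
Log2 difference of resistant minus sensitive strain (vertical axis) within each table for the 5 paired and tested member probes (horizontal axis), from the joint fit of all 15 mice, with 95% intervals as bars. Agt, Ren1 and Ace have opposite signs in the tables, with the Agt sizes set in part by background values in NZW and BALB/c, and Agtrap is above 0 in both.

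Other genes of the pathway were read from a list of 19 that process or bind angiotensin peptides or belong to the linked kallikrein system. In B6 against NZW 9 of 18 measured genes were tested, 3 were higher in B6 and 1 was lower, beside the 18.9% of all probes. Prcp, a carboxypeptidase that cleaves angiotensin II, was higher in B6 by 2.88 ± 0.11 and lay at a mean log2 signal of 11.40 against 8.51 (limma, adjusted p = 6.06e-07). Rnpep, aminopeptidase B, was higher by 1.11 ± 0.14, and Klk1, tissue kallikrein, by 1.03 ± 0.12. Anpep, aminopeptidase N, which cleaves angiotensin III, was lower by -1.10 ± 0.11. The receptor genes Agtr1b, Agtr2 and Mas1 were not tested because of their low signals.

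Among BALB/c, DBA1 and 129/svj 3 of 6 measured genes of that list could be tested. Rnpep was higher in BALB/c than in DBA1 by 1.60 ± 0.20 (limma, adjusted p = 0.000883) and lower in DBA1 than in 129/svj by -0.99 ± 0.20 (adjusted p = 0.0188), with means of 9.90 in BALB/c, 9.28 in 129/svj and 8.29 in DBA1. Its strain order was that of Agtrap in the same table. Prep, prolyl endopeptidase, was lower in BALB/c than in DBA1 by -0.63 ± 0.16 (adjusted p = 0.0478). In BALB/c against 129/svj none of the 3 was called by limma, with 1 at an unadjusted p below 0.05.

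Among genes of the distal nephron that respond to aldosterone, a hormone released on angiotensin II, 1 of 9 was called in B6 against NZW, beside 18.9% of all probes. It was the thiazide-sensitive cotransporter gene Slc12a3, higher in B6 by 1.46 ± 0.13 (limma, adjusted p = 0.000118). In the table of BALB/c, DBA1 and 129/svj none of 4 was called in any comparison, with 1 in each at an unadjusted p below 0.05.

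Some markers of tubule injury differed between B6 and NZW, in both directions. Of 7 tubule injury markers tested in B6 and NZW, 5 were called, beside 18.9% of all probes. Of these, 3 were higher in B6, with Timp1 by 1.86 and Lcn2 by 1.80, and 2 were lower, with Havcr1 by -2.77. The mean log2 signal of the tested injury markers was 8.57 to 9.89 in B6 and 8.85 to 9.15 in NZW, so the strains overlapped. In the other table none of 3 was called, with 1 at an unadjusted limma p below 0.05 in BALB/c against DBA1 and none in the remaining comparisons. Leukocyte markers were called in no comparison by limma, with 1 of 8 tested in B6 against NZW and 1 of 3 in BALB/c against DBA1 at an unadjusted p below 0.05. Their mean log2 signal was 7.21 to 8.32 in B6, 7.39 to 7.56 in NZW, 6.77 to 7.84 in BALB/c, 7.32 to 7.78 in DBA1 and 6.23 to 8.89 in 129/svj. The part of injury or infiltration in the values of the members was not tested.

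Likeness to Ren1 across mice is given as a description, over the brightest Ren1 probe. Among the members in the table of BALB/c, DBA1 and 129/svj, Agt followed Ren1 with Pearson's r = 0.96 over 9 mice, and Agtrap and the Ace probes ran against it, with r from -0.83 to -0.79. In B6 and NZW Agt had r = 0.86 and Agtrap r = 0.82 over 6 mice, while the Ace probes had -0.60 and -0.54. The mice fall into strains and share arrays and normalization, so these values restate the strain differences. The non-member probes most like Ren1 were those of Serpine2, Ly6e, Psmb9, Zfp91-cntf and Manbal over the 9 mice (r from 0.95 to 0.96 among 6855 probes). Over the 6 mice they were those of Camk2n2, Scnm1, BC026590, Tm6sf2 and EG432681 (r from 0.989 to 0.995 among 16747 probes), and no gene was among the leading 5 in both tables.

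The precision behind these values rests on the number of mice. Each tested member probe was read on 19 to 69 beads per array, with a median standard error among beads of 3.80% of the signal in the table of B6 and NZW and 4.13% in the other. Between both arrays of the same mouse, tested member probes differed by 0.03 to 0.92 on the log2 scale, with a median of 0.13 over 18 pairs. Median array signals were 81.1 to 89.8 in the table of B6 and NZW and 118 to 152 in the other.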

How the data were processed

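Kidney cortex RNA had been labelled and hybridized to Illumina mouse BeadChips. The authors deposited signal intensity values without normalization and detection p-values against negative controls, in 2 tables, together with bead counts and bead standard errors per probe. The array software settings and the probe sequences are not given in the sources used here. Members were found by symbol, and in the second table by search key. The members and all gene lists were chosen with earlier results of these data known.

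Intensities were corrected with normexp from the detection p-values (limma 3.58.1, R 4.3.3, offset 16), quantile normalized within each table and taken to log2, and repeat arrays of a mouse were averaged. Probes detected (p of at most 0.05, the mean where repeated) in 3 or more mice were fitted with lmFit and eBayes, with Benjamini-Hochberg adjustment over all probes tested and a threshold of 0.05. Differences are first strain minus second, with the SE of the fit, and the resistant against sensitive comparisons used paired probes normalized together. Gene lists were read with the brightest probe of each gene. All member probes are accounted for, all called pathway genes may be named, and of other lists the 4 largest called. The fit was tested on simulated data. Only in DBA1 against 129/svj were the correlations of mice with the same number all positive (0.19, 0.10 and 0.39). There DBA1 mouse 1 and mouse 2 correlated more with another number (0.34 and 0.11), and no shared litter or day is stated. Tables were read with Python 3.11.15 and pandas 2.3.3. Results for some genes of the lists are not reported here.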

Additional observations from a re-analysis of the deposited data

Results flagged for a closer look

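Member probes stood out where the difference of resistant from sensitive strain was unlike in the 2 tables, by the interaction in the joint limma fit. This held for Agt (-5.63 on the log2 scale), for the Ren1 probes ILMN_2777226 (-1.50) and ILMN_2620114 (-1.30), and for the Ace probe ILMN_2424060 (1.26). The Agt size is set in part by background values, since NZW had no detected mouse and BALB/c 1 of 3. Each value is the difference in BALB/c against the mean of DBA1 and 129/svj minus that in B6 against NZW. The groups hold 3 mice each, so no single mouse was tested for standing apart.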

How the results depend on the processing

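No member difference changed its direction past the threshold under any alternative run. The number of member probes called in B6 against NZW (3) became 5 without background correction or with the methods' t-test at its unadjusted threshold, and 1 with a minimum log2 difference of 1. In BALB/c against 129/svj it went from 2 to 1 (probes detected in every mouse, only the mice of both strains, or the minimum difference), 4 (t-test, unadjusted) and 0 (t-test, Benjamini-Hochberg). In BALB/c against DBA1 it went from 4 to 1 (Agtrap) with the adjusted t-test. Agt (adjusted p = 0.0583) and the Ren1 probes (adjusted p = 0.0784 and 0.0838) were lost there. The number became 5 without background correction, with an offset of 50, with joint normalization or in a fit of these strains alone, and 6 with the unadjusted t-test. In DBA1 against 129/svj it went from 1 to 0 with only both strains, with the replicate block, with the adjusted t-test or with the minimum difference, and to 2 with the unadjusted t-test. In the average of both tables it went from 3 to 1 with the replicate block and 0 with the strain as a random block. Leaving out 1 mouse gave 2 to 4, 1 to 3, 4 to 5, 0 to 1 and 1 to 2 in that order, and 3 to 4 for the unlike differences.

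Over all probes, 3161 calls in B6 against NZW became 677 with joint normalization (6896 probes tested), 4770 and 1851 with the t-test unadjusted and adjusted, and 920 with the minimum difference. In the same way 909 in BALB/c against DBA1 became 2730, 398 and 538, and 587 for probes detected in every mouse. The 764 of BALB/c against 129/svj became 2236, 319, 487 and 466, and the 711 of DBA1 against 129/svj became 1787, 217, 460 and 368. Leaving out 1 mouse gave 2085 to 2716, 495 to 1153, 484 to 931 and 476 to 773. It fell most without B6 mouse 2 (2085), in BALB/c against DBA1 without BALB/c mouse 1 (553) or 2 (495) or DBA1 mouse 2 (583), and in BALB/c against 129/svj without BALB/c mouse 2 (484). Fewer probes or mice entered where this is said, and other causes were not tested. In no comparison did every mouse correlate best with its own number. With the block 2627, 915, 738 and 679 probes were called in the order above. The block also ended the Ace call of ILMN_2693774 in B6 against NZW (adjusted p = 0.0742). Fitting only the strains compared could not alter B6 against NZW, the only strains of their table.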
